A study of Mus musculus with 8 samples.

Results

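Nos2, Slc7a2, Ass1, Asl, Gch1, Arg1 and Arg2 are 7 genes of arginine use in immune cells, covering nitric oxide synthesis, the cofactor that this synthesis needs, and the competing arginases. They were chosen by name, with earlier results of these data known. Matched by symbol to Ensembl identifiers, all 7 were found among the 55450 genes of the deposited table. RNA-seq was run on mouse bone marrow cultures from animals with a dry eye model of Sjögren's syndrome (SS), an autoimmune disease of tear and salivary glands. The cultures were treated with recombinant S100A8/A9 (calprotectin, 2 calcium-binding proteins that neutrophils and monocytes secrete when inflamed) or with phosphate-buffered saline, called vehicle here. There were 4 libraries per group, numbered 1 to 4 in each. The cell type field calls the cells dendritic cells, while the titles carry the abbreviation BMDMs. The strain, age and sex of the mice, and the dose and duration of treatment, were not given in the sources used here, nor was it stated whether replicates were separate animals. The p-values therefore measure the spread between these libraries, which may be technical.

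Inducible nitric oxide synthase, the product of Nos2, turns arginine into nitric oxide and citrulline and works only with tetrahydrobiopterin bound. Arginases split the same arginine into ornithine and urea, so both enzymes draw on one substrate pool, and mouse macrophages and dendritic cells are textbook examples of cells that can express either. Citrulline can be turned back into arginine by the pair of enzymes encoded by Ass1 and Asl.

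Values are taken here as FPKM (fragments corrected for gene length and for the depth of the library), since no header or label gives a unit. Levels of different genes in a library are set side by side on that reading. Replicates 1 to 3 of both groups came from 1 table and replicate 4 of both groups from another, made separately, so the tests used replicates 1 to 3 and the replicate 4 pair stands beside them. The low values of replicate 4 implied 33400000 reads with S100A8/A9 and 31900000 with vehicle, while the depth of replicates 1 to 3 is unknown. The check of the unit on low values held in replicate 4 and not in replicates 1 to 3. Libraries of the same number deviated from their group means together, with correlations of 0.59, 0.25 and 0.52 across genes, so each treated library was also compared with the vehicle library of its number. On the marker genes, 9 of 9 macrophage markers were at 1 FPKM or more in all 6 libraries of replicates 1 to 3, as were 6 of 8 dendritic cell markers. The other dendritic cell markers, among them the receptor gene Flt3, stayed below that level in all 6, and no marker of either list was at 0 in all of them.

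For every tested gene the difference between groups was fitted with limma on log2(FPKM + 1), with p-values adjusted by Benjamini-Hochberg over the 11387 genes that reached 1 FPKM in 3 or more of the 6 libraries, and genes under 0.05 were called. All 7 genes passed that filter. None of the 7 was called, with or without the replicate number as a block, against 0% of all tested genes without the block and 0.518% with it. Without the block the adjusted p was 0.9998 for each of the 7 in limma, and with it the lowest was 0.138, for Ass1. What the pairs show is a direction: Nos2, Slc7a2, Ass1 and Gch1 were higher with S100A8/A9 in all 4 pairs (Slc7a2 not in pair 3 after upper-quartile or quantile scaling), while Asl, Arg1 and Arg2 were higher in 1, 2 and 3 of the 4. Of the tested genes in both tables, 11.7% were higher in all 4 pairs. Since the 7 were chosen with earlier results of these data known, this share and those below are description and no test of the set. In replicates 1 to 3 alone, 4 of the 7 were higher in every pair, against 19.4% of tested genes, and none was lower in every pair, against 9.62%. With the 3 other scalings these shares were 11% to 15.1% higher and 14.2% to 19.5% lower, and Arg1 was then lower in every pair. At an unadjusted p under 0.05 the same 4 genes passed with the block, all higher with S100A8/A9, as did 6.13% of tested genes. Without the block 2 passed, Gch1 and Ass1, as did 2.38%.

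**Figure D1:**
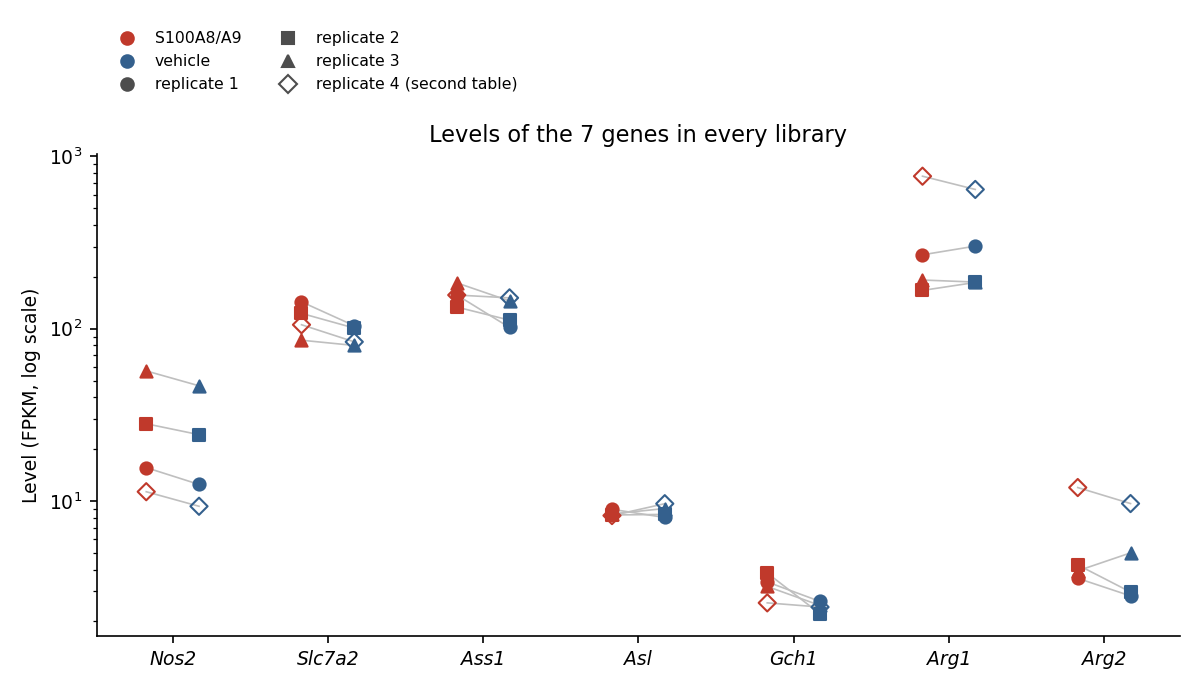
FPKM (log axis) of each gene in every library, S100A8/A9 in red at the left and vehicle in blue at the right of each gene, with a line joining libraries of the same number and open symbols for replicate 4. For Nos2 the lines slope the same way but lie far apart, between 9.32 FPKM in vehicle replicate 4 and 56.9 FPKM in S100A8/A9 replicate 3.

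The promoters of Ass1 and Gch1, which both had more FPKM with S100A8/A9 in every pair, were matched in the RefSeq table of start regions (GRCm38.p6), 2 of the 7 members, and are shown for the motifs near their starts. Each covers 250 bases before and 50 after the annotated start. In the Ass1 promoter (chr2:31470020-31470319, forward strand) the capitals mark CACGTG, the E-box that MYC and hypoxia-inducible factors can bind. In the Gch1 promoter (chr14:47189364-47189663, reverse strand) they mark CCAAT, bound by the factor NF-Y, and further on a match to the kappaB consensus, the pattern bound by NF-kB dimers.
Ass1: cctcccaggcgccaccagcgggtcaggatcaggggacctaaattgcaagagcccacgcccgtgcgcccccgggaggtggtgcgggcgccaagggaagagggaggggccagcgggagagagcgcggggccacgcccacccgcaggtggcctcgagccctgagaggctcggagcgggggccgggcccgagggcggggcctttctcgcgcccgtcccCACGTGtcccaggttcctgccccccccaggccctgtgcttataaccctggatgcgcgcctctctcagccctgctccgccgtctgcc
Gch1: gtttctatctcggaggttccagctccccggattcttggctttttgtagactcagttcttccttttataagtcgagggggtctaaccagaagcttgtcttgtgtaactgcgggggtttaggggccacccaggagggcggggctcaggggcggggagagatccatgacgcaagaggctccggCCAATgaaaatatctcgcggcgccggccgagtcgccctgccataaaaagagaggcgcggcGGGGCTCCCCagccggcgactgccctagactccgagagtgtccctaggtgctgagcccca

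The letters CACGTG begin 36 bases before the RefSeq start of Ass1, and 7.15% of 32851 promoters of the same length hold them. The GENCODE span of Ass1 begins further upstream, at chr2:31470207, so by that annotation the letters lie inside the gene. In Gch1, CCAAT begins 70 bases before the start (held by 37.4% of promoters) and the kappaB consensus 10 bases before it (5.8%). The cyclic AMP element TGACGTCA was in neither window and in 1.79% of promoters. The GC box GGGCGG occurred in both, as in 35.7% of promoters, and TATAAA in Gch1 alone, as in 13.6%. Both strands were searched, and none of the marked matches overlaps another. These are letter matches, and binding was not measured. GC made up 74% of the Ass1 window and 60.3% of the Gch1 window, with a median of 52.7% over all promoters.

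Nos2 (ENSMUSG00000020826, chr11:78920787-78960254, forward strand, mm10) encodes the synthase itself. With S100A8/A9 it had 15.6, 28.1 and 56.9 FPKM in replicates 1 to 3, and with vehicle 12.5, 24.3 and 46.6 FPKM. Replicate 3 was highest and replicate 1 lowest in both groups, and the groups overlapped across nearly their whole range. The within-pair ratios were close to each other: 1.25, 1.16 and 1.22 in pairs 1 to 3, with a geometric mean of 1.21. Replicate 4 had 11.3 FPKM with S100A8/A9 and 9.32 FPKM with vehicle, a ratio of 1.21 (95% exact interval 1.13 to 1.31, for counting error only). So all 4 ratios lay between 1.16 and 1.25, whatever the level of the gene in that pair. The log2(FPKM + 1) difference was 0.26 ± 0.55 (SE) without the block, with a 95% interval from -1.02 to 1.55. With the block its SE was 0.0613, its interval 0.12 to 0.41 and its adjusted p 0.239 in limma. Nos2 was ranked 210 of 11387 by its p in the blocked fit.

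Without S100A8/A9 replicate 3, the unblocked Nos2 difference was -0.20, and without vehicle replicate 1 it was -0.19, since each removal takes out the highest or lowest library of 1 group only. Leaving out a whole pair with the block gave 0.24 to 0.29.

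Gch1 (ENSMUSG00000037580, chr14:47153895-47189413, reverse strand) encodes GTP cyclohydrolase 1, the first and rate-limiting enzyme of tetrahydrobiopterin synthesis. It was the least abundant of the 7, with 3.39, 3.82 and 3.19 FPKM with S100A8/A9 and 2.61, 2.21 and 2.47 FPKM with vehicle in replicates 1 to 3. It was the only member whose groups did not overlap in those replicates, which was so, with S100A8/A9 higher, for 4.71% of tested genes. The within-pair ratios were 1.30, 1.72 and 1.29, with a geometric mean of 1.42, the largest of the 7. In replicate 4 the pair was closer, at 2.56 FPKM with S100A8/A9 and 2.42 FPKM with vehicle. That ratio of 1.06 rested on 535 and 483 reads, and its 95% exact counting interval of 0.933 to 1.2 included 1. The log2 difference was 0.38 ± 0.11 (SE, 95% interval 0.11 to 0.64) without the block, and the block hardly moved its SE, at 0.112. The adjusted p was 0.384 with the block in limma. Of the 7 genes it had the smallest share of its sum of squares between replicate numbers, 1.6%.

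Slc7a2 (ENSMUSG00000031596, chr8:40862396-40922308, forward strand) encodes the cationic amino acid transporter CAT2, which brings arginine into activated macrophages. Its levels were 143, 123 and 85.8 FPKM with S100A8/A9, against 104, 101 and 79.96 FPKM with vehicle. Pair 1 had the largest ratio, 1.38, and pair 3 the smallest, 1.07, with 1.22 in pair 2. Replicate 4 had 106 FPKM with S100A8/A9 and 83.9 FPKM with vehicle, a ratio of 1.26 (counting interval 1.24 to 1.28). The treated libraries 1 and 2 stood above every vehicle library of the same table, while treated replicate 3 fell within the vehicle range. The log2 difference was 0.28, with an interval from -0.19 to 0.75 without the block and 0.10 to 0.46 with it (adjusted p = 0.345 with the block in limma). Pair 3 changed direction with another scaling: its ratio was 0.987 after upper-quartile scaling and 0.971 after quantile normalization, so that Slc7a2 was then higher in 2 of 3 pairs. The long noncoding gene Gm26584 on the other strand shares 635 exon bases with Slc7a2 (6.95% of them) and was at most 2.21 FPKM. Strand marking was not given, so reads there cannot be told apart.

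Ass1 (ENSMUSG00000076441, chr2:31470207-31520672, forward strand) encodes argininosuccinate synthase, which joins citrulline and aspartate in the first step back to arginine. It had 157, 134 and 185 FPKM with S100A8/A9 in replicates 1 to 3, against 102, 112 and 145 FPKM with vehicle. Each treated library was above its pair partner, and the groups overlapped only because vehicle replicate 3 exceeded treated replicate 2. Ratios were 1.54, 1.19 and 1.27, with a geometric mean of 1.33. In replicate 4 the values were nearly level, at 157 FPKM with S100A8/A9 and 151 FPKM with vehicle, a ratio of 1.04 (counting interval 1.01 to 1.06). The fitted log2 difference of 0.41 was the largest of the 7 over all 6 libraries as deposited with 1 added. Gch1 exceeded Ass1 with 0.1 added (0.49 against 0.41) and after quantile normalization (0.37 against 0.34). Leaving out a library or a pair sometimes put another gene first, such as Gch1 without replicate 1 with the block (0.43 against 0.30). Over the 6 libraries the Ass1 interval ran from 0.002 to 0.81 without the block and from 0.21 to 0.60 with it (adjusted p = 0.138 with the block in limma). Over all 22 alternatives its adjusted p was never below 0.0829.

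Asl (ENSMUSG00000025533, chr5:130011258-130029247, reverse strand) encodes argininosuccinate lyase, which releases arginine and fumarate and completes that cycle. It was nearly flat: 8.95, 8.29 and 8.42 FPKM with S100A8/A9, and 8.02, 8.36 and 9.04 FPKM with vehicle. Its log2 difference of 0.01 had a 95% interval from -0.21 to 0.23, or 0.867-fold to 1.17-fold on the FPKM + 1 scale. In replicate 4 it was lower with S100A8/A9, at 8.23 FPKM against 9.65 FPKM with vehicle (ratio 0.853, counting interval 0.792 to 0.919). The sign of the Asl difference was negative with each of 3 other scalings. The transcript of the first enzyme of the cycle had far more FPKM than that of the second in every library. Enzyme levels were not measured, and such ratios depend on the gene lengths used. Ass1 exceeded Asl 17.6-fold, 16.1-fold, 21.9-fold and 19.1-fold in S100A8/A9 replicates 1 to 4, and 12.7-fold, 13.4-fold, 16-fold and 15.7-fold in vehicle replicates 1 to 4. Thus the FPKM ratio was higher with S100A8/A9 in each of the 4 pairs, a pattern seen in values already described and not tested.

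**Figure D2:**
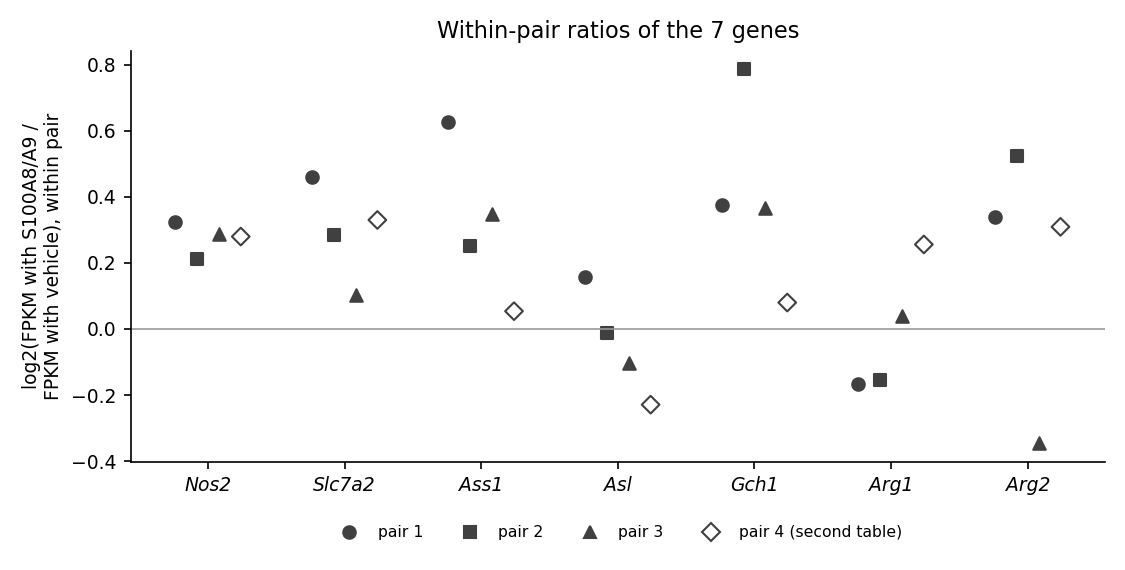
Log2 of the FPKM ratio of S100A8/A9 over vehicle within each pair, for each gene, with open diamonds for the pair of the second table. All 4 points lie above 0 for Nos2, Slc7a2 (as deposited, though not in pair 3 after upper-quartile or quantile scaling), Ass1 and Gch1, and on both sides of 0 for Asl, Arg1 and Arg2. The pair 4 points of Ass1 and Gch1 are close to 0, at ratios of 1.04 and 1.06, and other scalings covered pairs 1 to 3 only.

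Arg1 (ENSMUSG00000019987, chr10:24915221-24927484, reverse strand) encodes the cytosolic arginase, a gene that interleukin-4 induces in mouse macrophages. It was the most abundant of the 7 genes in each library, above 98.8% of tested genes in mean FPKM. With S100A8/A9 its levels were 269, 167 and 192 FPKM, and with vehicle 302, 186 and 187 FPKM. Replicate 1 was highest in both groups, and the treated library was lower in pairs 1 and 2 (ratios 0.891 and 0.899) and higher in pair 3 (1.03). Replicate 4 had 768 FPKM with S100A8/A9 and 644 FPKM with vehicle, a ratio of 1.19 (counting interval 1.18 to 1.21). The log2 difference was -0.09, with a 95% interval from -0.24 to 0.05 with the block (adjusted p = 0.809 in limma) and from -0.66 to 0.48 without it. With the other 3 scalings Arg1 was lower with S100A8/A9 in all 3 pairs of the first table.

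Arg2 (ENSMUSG00000021125, chr12:79130777-79156301, forward strand) encodes the mitochondrial arginase. Its levels were low, at 3.56, 4.25 and 3.93 FPKM with S100A8/A9 and 2.81, 2.96 and 5 FPKM with vehicle. Ratios went both ways: 1.27 and 1.44 in pairs 1 and 2, and 0.787 in pair 3. Replicate 4 held 12 FPKM with S100A8/A9 and 9.66 FPKM with vehicle, a ratio of 1.24 (counting interval 1.09 to 1.41). The log2 difference of 0.13 had an interval from -0.22 to 0.48 with the block (adjusted p = 0.898 in limma), and without replicate 2 it was -0.01 with the block. Vti1b, a vesicle fusion gene on the opposite strand, shares 285 exon bases with Arg2, 20% of them, and was between 11.5 and 33.3 FPKM. The Arg2 values are therefore uncertain.

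**Figure D3:**
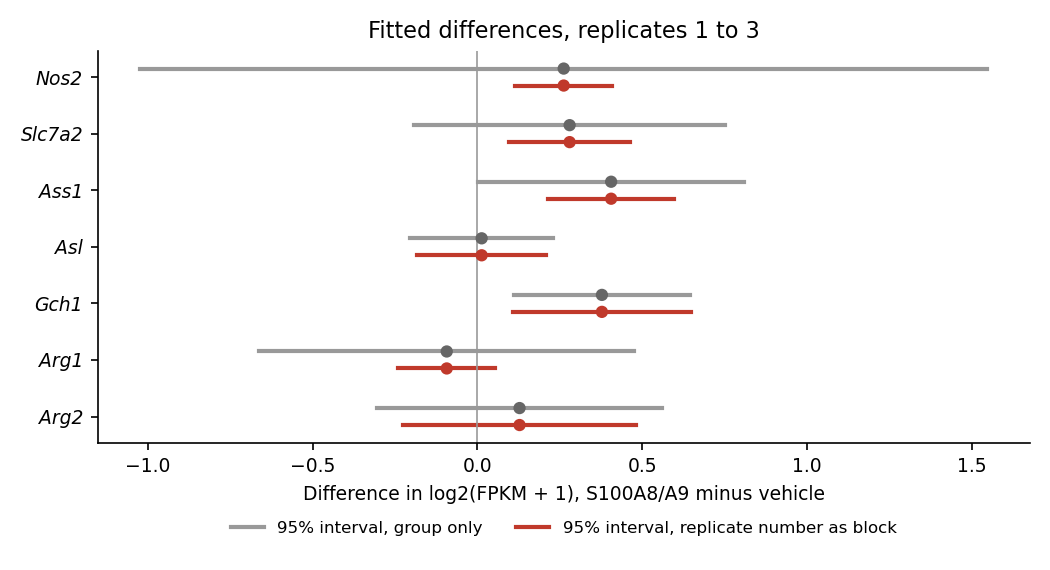
Fitted difference in log2(FPKM + 1), S100A8/A9 minus vehicle, in replicates 1 to 3, with 95% intervals from the fit on group alone (grey) and with the replicate number as a block (red). The block narrows the Nos2 interval from between -1.02 and 1.55 to between 0.12 and 0.41 and hardly moves that of Gch1; these intervals are not adjusted over genes.

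Set in order of mean FPKM, both groups ran Arg1, Ass1, Slc7a2, Nos2, Asl, Arg2 and Gch1. With S100A8/A9 the library ranges of Arg1 and Ass1 overlapped, as did those of Ass1 and Slc7a2 and those of Arg2 and Gch1. With vehicle only Ass1 and Slc7a2 overlapped among neighbours. Arg1 transcripts outnumbered Nos2 transcripts per length in every library, by a factor that differed greatly between replicate numbers. The ratio was 17.2, 5.95, 3.37 and 67.9 in S100A8/A9 replicates 1 to 4, and 24.2, 7.65, 4 and 69.1 in vehicle replicates 1 to 4. It was lower with S100A8/A9 in each pair, a pattern seen in values already described and not tested. In pair 4 it was nearly level, and the counting interval of the Nos2 ratio there, 1.13 to 1.31, included the Arg1 ratio of 1.19. The spread of Arg1 over Nos2 from replicate 3 to replicate 4 was many times larger than any difference within a pair.

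The weight of the replicate number differed between members. Of the sum of squares of log2(FPKM + 1) over the 6 libraries, differences between replicate numbers made up 96.9% for Nos2 and 95.5% for Arg1, and treatment 3.04% and 2.25%. For Gch1 the shares were turned round, with 85.7% for treatment and 1.6% for replicate number. Ass1 lay between, with 50.2% for treatment and 42.2% for replicate number, and Slc7a2 had 24.2% and 69.2%. For Asl 78% was in neither term. Over all tested genes the median share of the replicate number was 63.6%, and 3 of the 7 members had over 50% there, as did 63.2% of tested genes.

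**Figure D4:**
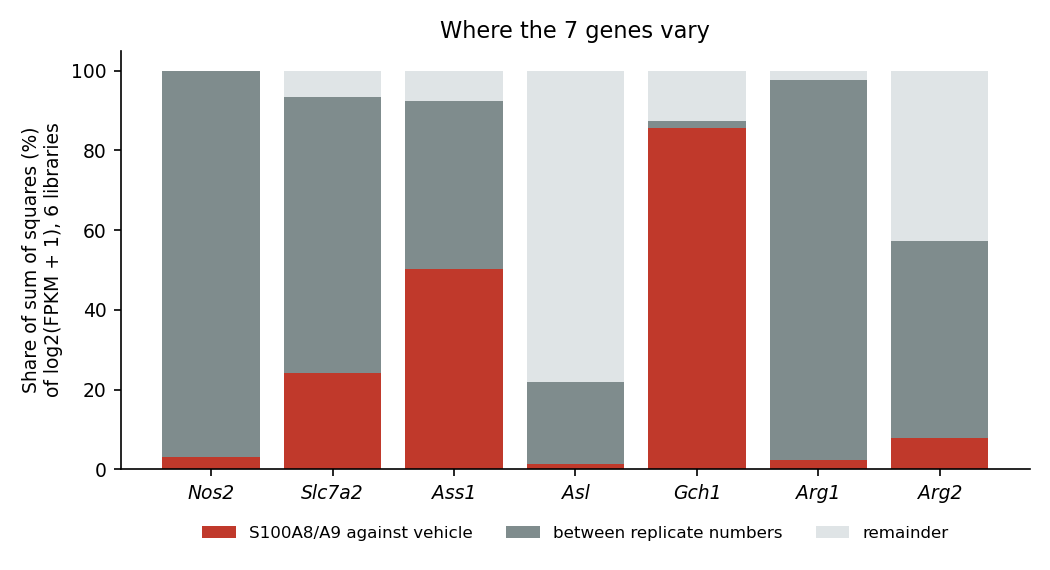
Share of the sum of squares of log2(FPKM + 1) over the 6 libraries of replicates 1 to 3 that lies between treatments (red), between replicate numbers (grey) and in neither (light). Nos2 and Arg1 varied almost wholly by replicate number, at 96.9% and 95.5%, and Gch1 mostly by treatment, at 85.7%.

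Markers of other cells also differed between replicate numbers. Summed over 11 neutrophil markers, of which 3 were at 1 FPKM or more in all 6 libraries, the level was 25.3, 69.7 and 144 FPKM in S100A8/A9 replicates 1 to 3, and 24.9, 62 and 156 FPKM in vehicle replicates 1 to 3. The summed macrophage markers were at 998, 682 and 580 FPKM with S100A8/A9, and at 949, 682 and 536 FPKM with vehicle. Nos2 was thus highest where the neutrophil sum was highest, and Arg1 where the macrophage sum was highest, among replicates 1 to 3. The Arg1 match was not particular to macrophage markers. Replicate 1 was also highest in both groups for the dendritic cell, T and NK cell, and eosinophil, basophil and mast cell sums. The dendritic cell sum was 4730, 3400 and 3400 FPKM with S100A8/A9, and 4710, 3360 and 3130 FPKM with vehicle. In replicate 4 the macrophage sum was 1070 FPKM with S100A8/A9 and 1040 FPKM with vehicle. The dendritic cell sum there was 1690 FPKM with S100A8/A9 and 1740 FPKM with vehicle. Replicate numbers differed in the neutrophil sum through S100a8 and S100a9. Csf3r, a receptor gene and the other neutrophil marker above 1 FPKM throughout, was highest in replicate 1. It was at 10.1, 6.45 and 6.67 FPKM with S100A8/A9 and 11.6, 6.19 and 4.59 FPKM with vehicle. The erythroid markers, 4 of 5 found, were in the same order as Nos2, summing to 3.44, 4.69 and 87.5 FPKM in S100A8/A9 replicates 1 to 3 and to 2.13, 6.97 and 87.4 FPKM in vehicle replicates 1 to 3. That sum was almost wholly the globin genes Hba-a1 and Hbb-bs, while Klf1, an erythroid transcription factor gene, was at most at 0.146 FPKM in these 6 libraries. In replicate 4 it was 4.24 FPKM with S100A8/A9 and 2.85 FPKM with vehicle. Replicate 4 did not keep to the order of the neutrophil sum, with 123 FPKM with S100A8/A9 and 115 FPKM with vehicle beside the lowest Nos2 values of all. S100a8 alone made up 39.1% to 80.4% of that neutrophil sum in replicates 1 to 3, while the granule gene Elane was never above 0.21 FPKM in replicates 1 to 3. The part of cell composition in these levels was not tested, and in bulk RNA more cells of a type cannot be told apart from more RNA per cell.

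Genes that surround the 7 in the same pathways mostly stayed near the background. Over 8 lists of arginine transport, nitric oxide, tetrahydrobiopterin, polyamine and ornithine metabolism, regulators and activation genes other than the classical ones, none of the 56 tested genes was called in either fit. List medians of the log2 difference ran from -0.02 to 0.11, beside 0.02 over all tested genes and 0.26 over the 7 members, which were chosen with earlier results of these data known.

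Among cationic amino acid transporters, 4 of 7 were tested. Slc3a2, the heavy chain shared by several amino acid exchangers, had 129 ± 17.6 FPKM with S100A8/A9 and 115 ± 13.5 FPKM with vehicle (SD, n = 3 each; adjusted p = 0.472 with the block in limma). Slc7a6, a y+L transporter chain, had 3.5 ± 0.629 FPKM with S100A8/A9 and 3.83 ± 0.616 FPKM with vehicle (SD, n = 3 each), with the opposite sign. CAT2 was the main transporter of its kind by transcript level. Slc7a2 exceeded Slc7a1, which encodes the constitutive CAT1, 36.6-fold, 20.3-fold and 11.4-fold in S100A8/A9 replicates 1 to 3, and 25.8-fold, 17.6-fold and 12.1-fold in vehicle replicates 1 to 3.

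The other nitric oxide synthases were near 0: Nos1, the neuronal enzyme, reached at most 0.0136 FPKM and Nos3, the endothelial one, at most 0.0417 FPKM in replicates 1 to 3. Nosip, whose product binds nitric oxide synthases, had a log2 difference of 0.07. On the receiving side, the subunit genes of soluble guanylate cyclase, Gucy1a1, Gucy1a2 and Gucy1b1, did not pass the filter. Akr1a1 and Adh5, whose products reduce S-nitrosylated carriers, were the 2 tested genes of their list. Akr1a1 had 308 ± 24.7 FPKM with S100A8/A9 and 275 ± 18.3 FPKM with vehicle (SD, n = 3 each; adjusted p = 0.489 with the block in limma), and Adh5 had a log2 difference of 0.07 (adjusted p = 0.95).

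Beyond Gch1, 4 of 8 tetrahydrobiopterin genes were tested and their median difference was -0.02. Qdpr, which recycles the oxidised cofactor, had 12.9 ± 2.46 FPKM with S100A8/A9 and 11.6 ± 1.56 FPKM with vehicle (SD, n = 3 each). Pcbd2, a dehydratase of the same recycling, had 4.64 ± 0.158 FPKM with S100A8/A9 and 5.51 ± 0.964 FPKM with vehicle (SD, n = 3 each), and was lower in all 3 pairs. Their adjusted p-values with the block in limma were 0.763 and 0.764. Gchfr, the feedback regulator of GTP cyclohydrolase, failed the filter with at most 1.27 FPKM.

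Downstream of arginase, 12 of 13 polyamine genes were tested. Srm, spermidine synthase, had 12.5 ± 0.275 FPKM with S100A8/A9 and 11.2 ± 0.985 FPKM with vehicle (SD, n = 3 each), and Smox, spermine oxidase, had 13.7 ± 2.4 FPKM with S100A8/A9 and 12.1 ± 2.42 FPKM with vehicle (SD, n = 3 each). Both were higher in all 3 pairs, and limma gave each an adjusted p of 0.72 in the blocked fit. Of 14 ornithine, proline, urea and creatine enzymes 8 were tested. Oat, ornithine aminotransferase, and Gatm, the first enzyme of creatine synthesis, led them by p with log2 differences of 0.10 and 0.08. The liver urea cycle genes Otc and Cps1 were listed at 0 in all 6 libraries of replicates 1 to 3.

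**Figure D5:**
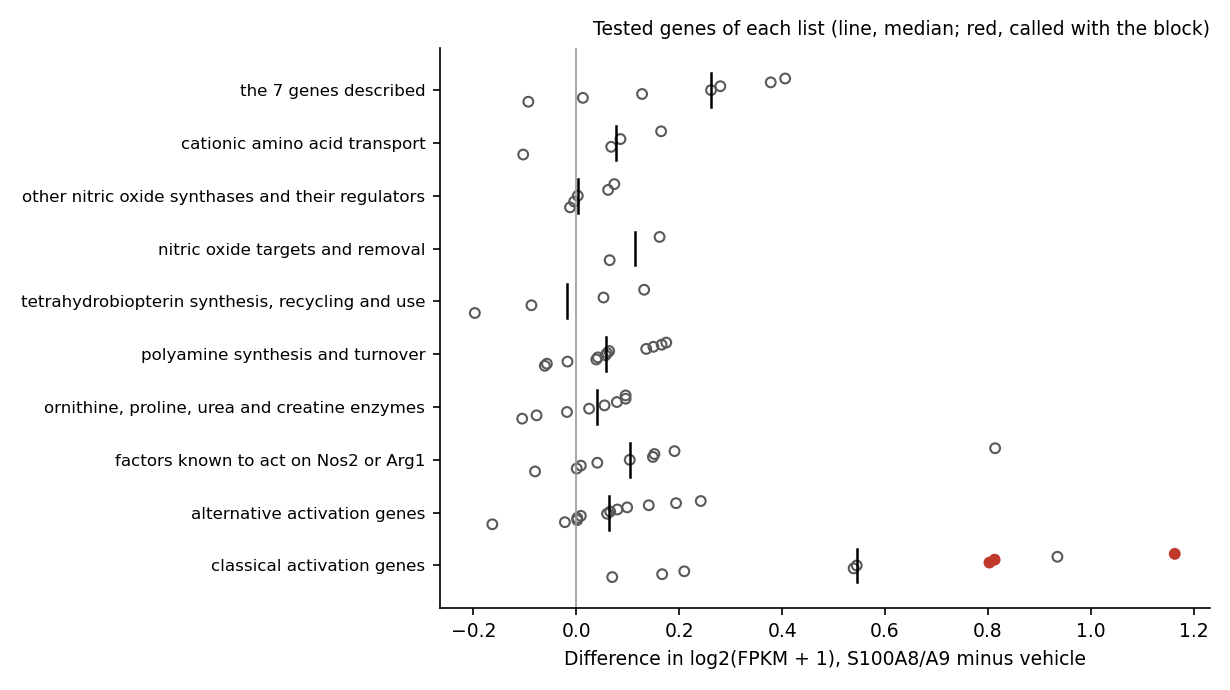
Difference in log2(FPKM + 1), S100A8/A9 minus vehicle, of each tested gene (circles) and the median (line) by list, in replicates 1 to 3, with genes called in the blocked fit in red. The 3 red genes are Gbp5, Acod1 and Cxcl10 of the classical activation list, which were not called after the 3 other scalings, and no gene of the arginine, nitric oxide or tetrahydrobiopterin lists is red.

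Among factors known to act on Nos2 or Arg1, 0 of 9 were called. Nfkb1, an NF-kB subunit gene, had a log2 difference of 0.19 (adjusted p = 0.42 with the block in limma).

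Nos2 is itself a textbook gene of classical macrophage activation. Of 9 tested genes on the list of that program, 3 rose in the blocked limma fit and none fell, where 0.501% of all tested genes rose, and the median difference was 0.55. Acod1, the itaconate enzyme gene, had 155 ± 14.2 FPKM with S100A8/A9 and 89 ± 18.7 FPKM with vehicle (SD, n = 3 each; adjusted p = 0.0326 in limma). The chemokine gene Cxcl10 had 12.5 ± 1.48 FPKM with S100A8/A9 and 5.29 ± 2.22 FPKM with vehicle (SD, n = 3 each; adjusted p = 0.0421 in limma). Gbp5, a GTPase gene, had 5.82 ± 1.2 FPKM with S100A8/A9 and 2.9 ± 0.592 FPKM with vehicle (SD, n = 3 each; adjusted p = 0.0305 in limma). Without the block each of the 3 had 0.736 as its limma adjusted p. In the blocked fit none of the 3 was called after any of the 3 other scalings (adjusted p 0.0857 to 0.127 in limma), without the filter, with all 8 libraries or without replicate 3, and without replicate 1 Acod1 alone was. In replicate 4, Acod1 was at 73.6 FPKM with S100A8/A9 and 47 FPKM with vehicle, Cxcl10 at 0.479 FPKM with S100A8/A9 and 0.404 FPKM with vehicle, and Gbp5 at 2.95 FPKM with S100A8/A9 and 3.28 FPKM with vehicle. Several genes of that list are interferon-stimulated, and the list was written with earlier results of these data known. Of the 12 alternative activation genes, all tested, none was called. Ccl24, a chemokine for eosinophils, had 32.1 ± 3.62 FPKM with S100A8/A9 and 26.9 ± 1.04 FPKM with vehicle (SD, n = 3 each; adjusted p = 0.493 with the block in limma), and Pdcd1lg2, the PD-L2 gene, had a log2 difference of 0.19 (adjusted p = 0.543).

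Across the 6 libraries of replicates 1 to 3, the genes with the profile most like each member were found by Pearson correlation of log2(FPKM + 1), as a description. The points share replicate numbers and tables, so many genes reach high values. Nearest to Nos2 were Tank (r = 0.998), which encodes a TRAF-binding adaptor, Hmgxb3 (0.997) and Msantd3 (0.996). Tank had 38.1, 43.2 and 52.6 FPKM with S100A8/A9 and 35.4, 42.6 and 50.5 FPKM with vehicle, so it shared the order of the replicates with a much narrower range. Slc7a2 was nearest to Pik3ap1 (0.997), an adaptor of phosphoinositide 3-kinase, Brip1os (0.996) and the oligoadenylate synthetase gene Oas1g (0.992), whose close relatives can share its reads. For Ass1 the nearest were Txnl1 (0.994), Nub1 (0.989) and Tma16 (0.977), and for Gch1 they were Pkig (0.972), a protein kinase A inhibitor gene, Morc3 (0.968) and the pseudogene Mpc1-ps (0.96), whose reads may come from its parent gene. Pkig had 13.4, 16.4 and 12.9 FPKM with S100A8/A9 and 8.23, 8.16 and 8.47 FPKM with vehicle. Its groups, like those of Gch1, did not overlap, which follows from its being picked for likeness to Gch1. With S100A8/A9 higher, this was so for 4.71% of tested genes. Arg1 was nearest to the tubulin gene Tuba1a (0.995), the pseudogene Tmed10-ps (0.993) and the coatomer gene Copz1 (0.989). Nearest to Asl were Trmt6 (0.988), Llph (0.972) and Prpf38a (0.969), and to Arg2 the kinase genes Aak1 (0.987) and Taok1 (0.983) and the splicing gene Syf2 (0.975). Among the members themselves, over the same 6 libraries, r was -0.77 between Nos2 and Arg1 but 0.72 between Nos2 and Arg2. With Nos2 it was -0.70 for Slc7a2, 0.66 for Ass1, 0.32 for Asl and 0.03 for Gch1. Replicate 4, outside these 6 libraries, had the lowest Nos2 and the highest Arg1 and Arg2 of each group. The contrast between the arginases thus rests on replicates 1 to 3.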

How the data were processed

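The authors deposited 1 value per Ensembl gene and library, taken here as FPKM from how low values scale with gene length, since neither headers nor labels give a unit. Tools in the submitters' processing notes, with no roles, are DESeq2 1.34.0, Subread, featureCounts and HISAT2, and the build is mm10. Per the labels' protocols, poly(A) RNA was fragmented and reverse transcribed with random priming, and no strand marking is mentioned. Replicates 1 to 3 share a table of 55450 genes, and replicate 4 of both groups one of 24848, with 24388 in both. In replicate 4, 98.77% (S100A8/A9) and 98.55% (vehicle) of low values (20 reads or fewer) came to a whole read count within 0.01, using GENCODE exon lengths. In replicates 1 to 3 this held for 2.55% to 3.71%.

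The test was limma-trend 3.58.1 (R 4.3.3) on log2(FPKM + 1) of replicates 1 to 3 with group as the term, two-sided, adjusted over the 11387 genes that reached 1 FPKM in 3 or more of 6 libraries. The counts test that raw reads would allow was not possible on FPKM. A second fit added the replicate number as a block, since deviations from the group means correlated at 0.59, 0.25 and 0.52 between libraries of the same number. Between different numbers they correlated at -0.53 to -0.01. Those negative values follow in part from the positive ones, as deviations from a mean cancel within each group. Both fits were also run on simulated data in which the strength of the pairing was set by hand. The only pass mark there was the fitted difference without the block, so the error rates of either fit were not checked. The added 1 shrinks log2 differences of low genes, and ratios are of FPKM itself. Intervals for replicate 4 ratios are exact binomial, conditional on both libraries' reads.

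Symbols came from a table of Ensembl names, and positions from GENCODE M21 (mm10). Named genes are the 7 members; each list's called genes, or its 2 lowest p-values in the blocked fit if it had none; and, per member, the 3 genes of at least 5 FPKM, predicted models aside, that correlate best with it. Other genes are named as controls or as background to a list. Some items that this rule, the marker lists or the motif search would name are not reported here. The members and lists were chosen with earlier results of these data known.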

Additional observations from a re-analysis of the deposited data

Results flagged for a closer look

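Each of the 7 genes was examined for a library far from the other 3 of its group, in 14 sets of 4 libraries, and 2 sets had one, where chance gives about 1 in 20. Both were S100A8/A9 replicate 4: Arg1 at 768 FPKM, against 167 to 269 FPKM in S100A8/A9 replicates 1 to 3, and Arg2 at 12 FPKM, against 3.56 to 4.25 FPKM. Vehicle replicate 4 was also the highest of its group for both arginases, at 644 FPKM for Arg1 and 9.66 FPKM for Arg2, without passing the same limit. Replicate 4 comes from the separately made table, and whether the table or the culture sets these levels cannot be told apart.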

How the results depend on the processing

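None of the 7 genes was called under any of the 22 alternatives. Slc7a2, Ass1 and Gch1 kept a positive log2 difference in all 22, from 0.12 to 0.49 for Slc7a2, 0.29 to 0.55 for Ass1 and 0.28 to 0.49 for Gch1. The Asl difference was -0.0135 with median-of-ratios factors, -0.0388 with upper-quartile factors, -0.0254 with quantile normalization and -0.0419 with all 8 libraries, each with and without the replicate block. Leaving out 1 library, or 1 pair with the block, gave -0.0511 to 0.0653 for Asl (-0.0216 to 0.0553 without the block), -0.20 to 0.72 for Nos2, -0.29 to 0.14 for Arg1 and -0.0122 to 0.34 for Arg2. Nos2 was negative without S100A8/A9 replicate 3 (-0.20) or vehicle replicate 1 (-0.19), Arg1 positive without S100A8/A9 replicate 2 (0.05) or vehicle replicate 1 (0.14), and Arg2 negative without replicate 2 with the block (-0.0122). Each such removal takes away a library or pair at one end of the range. Over all genes the count of calls in limma was 0 without the block, with 344 at an unadjusted p under 0.05. With the replicate block it was 59, and with the block it was 62 at a pseudocount of 0.1, 3 with each of the 3 other scalings and 0 without the filter or with all 8 libraries. Leave-outs gave 0 to 98 calls, with 98 without replicate 2, 40 without replicate 1 and 7 without replicate 3 with the block, and 1 without vehicle replicate 2. The cause of these differences was not tested. Gch1 and Arg2 had the fewest reads of the 7 in replicate 4, and the part of depth in these results was not tested.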
